A study of Homo sapiens with 2 samples.

Results

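YAP1, its paralog WWTR1 (which encodes TAZ), the transcription factors TEAD1 and TEAD4, the target genes CCN1 (older name CYR61), CCN2 (CTGF) and ANKRD1, the targets AMOTL2 and LATS2 that also restrain the pathway, and AJUBA, an inhibitor of the LATS kinases, were read from every probe set listed under their 1 gene symbol. These 10 genes of the 19775 measured had 24 of the 41097 probe sets with 1 symbol. HCC4006 is an NSCLC cell line with an EGFR exon 19 deletion that is sensitive to erlotinib, an EGFR kinase inhibitor. HCC4006ER cells were derived from it by growth in rising concentrations of erlotinib, keep the deletion, and are labelled erlotinib resistant with an EMT phenotype. Both lines were cultured for 48 hours without any added treatment, RNA of 3 preparations per line was mixed, and 1 array was hybridized per line, so no clone or separate culture can be followed. The arrays are named here by their labels.

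YAP and TAZ carry no DNA-binding domain and act on genes by binding TEAD factors in the nucleus. The Hippo kinases MST and LATS phosphorylate them, which keeps them in the cytoplasm and leads to their degradation, and cell contacts, polarity proteins and tension of the cytoskeleton feed into these kinases. In epithelial tumours including lung carcinoma the pair is known for a part in proliferation, EMT and tolerance of EGFR inhibitors. YAP and TAZ activity is set mostly by phosphorylation and location of the proteins, neither of which an mRNA array measures, so the transcripts of target genes are the usual readout.

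Values are MAS5 signals, a linear brightness per probe set that the authors had scaled to a trimmed mean of 500.1 on each array. The background level was set by 127 probe sets of bitter taste and olfactory receptors, and their 95th percentile was 96.2 on the HCC4006 array and 91.6 on the HCC4006ER array. A fold is the ratio of HCC4006ER to HCC4006 and 1.5-fold was the threshold of the study. With 1 array per line no test was possible. Where a gene had several probe sets above background, their log2 folds spread with a pooled SD of 0.27 (5264 genes), a measure that holds no variation between arrays or cultures. The 7 epithelial markers (KRT8, KRT18, KRT19, KRT7, EPCAM, CDH1 and CLDN7) were above background on both arrays, with log2 folds of -0.37 to 0.43. Of the 7 EMT markers, VIM, CDH2 and FN1 were past 1.5-fold higher and SNAI2 had a log2 fold of 0.07, but ZEB1, ZEB2 and SNAI1 were not above background on either array. With CDH1 at a log2 fold of 0.08, the markers fitted the EMT label of the HCC4006ER array only in part, and every direction given here rests on that label. Whether the RNA on that array came from the resistant culture the label describes was not tested. Of 9 fibroblast markers, 2 passed the background level on the HCC4006 array and 1 on the HCC4006ER array, and their summed signals were 1050 and 1210. Of these COL1A1 was read at 591 and 965 and THY1 at 125 and 40.1, the latter under background, while LUM, DCN and COL3A1 were not above background on either array. Endothelial markers were above background for 1 of 5 genes on both arrays, and leukocyte markers for 1 of 4 and 0 of 4. The part of such cells in the values below was not tested.

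LATS2 was the one gene of the 10 past 1.5-fold, at 1.77-fold higher on the HCC4006ER array. TEAD1 and AMOTL2 followed at 1.39-fold each, WWTR1 lay 1.34-fold to the other side, and YAP1, TEAD4, CCN1, CCN2 and AJUBA lay within 1.16-fold. ANKRD1 was not above background on either array. Of the 9 genes above background, 1 was therefore higher past 1.5-fold and 0 were lower, against a background of 7.99% higher and 11.2% lower among all 11896 genes above background. Over the 9 genes the median log2 fold was 0.14, beside -0.04 over all genes above background, and 7 of the 9 had a log2 fold above 0, beside 45.6% of all genes. In such RNA pools fewer cells with a transcript and less of the transcript per cell cannot be told apart.

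**Figure D1:**
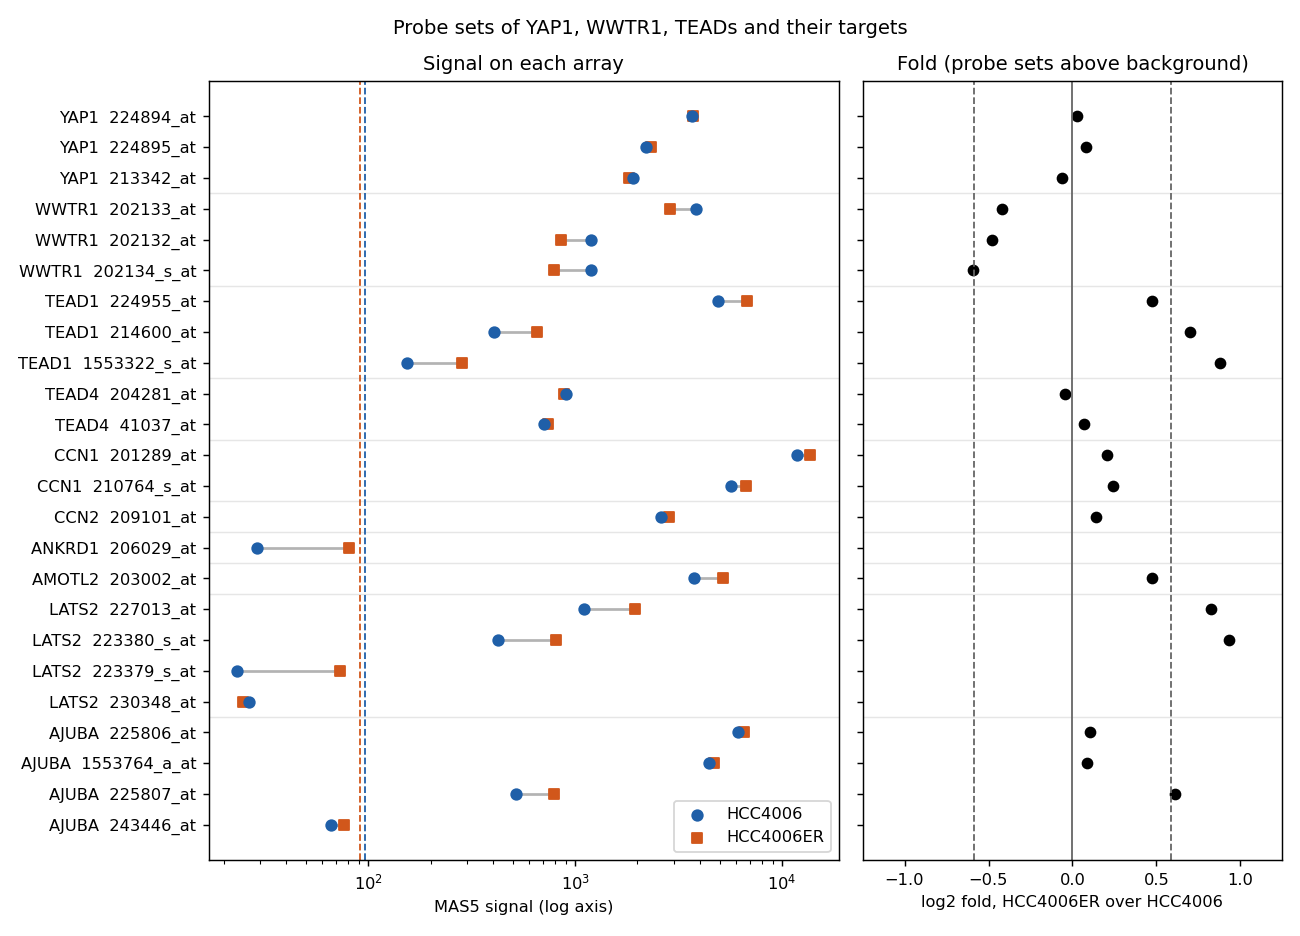
Left, MAS5 signal on a log axis for the 24 probe sets of the 10 genes, with circles for HCC4006 and squares for HCC4006ER and dashed lines at the background levels of 96.2 and 91.6; right, log2 fold of HCC4006ER over HCC4006 for the 20 probe sets above background, with dashed lines at 1.5-fold. The 3 WWTR1 probe sets lie left of 0 and the TEAD1 and LATS2 probe sets lie right of it, while those of YAP1 and TEAD4 lie about 0; ANKRD1 lies left of both background lines.

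Among the coactivators, the YAP1 probe sets read 3655, 2194 and 1899 on the HCC4006 array and, in the same order, 3716, 2316 and 1818 on the HCC4006ER array. The 3 log2 folds of YAP1 ran from -0.06 to 0.08, less than the SD between probe sets, and did not share a sign. The WWTR1 probe sets read 3852, 1189 and 1196 on the HCC4006 array and 2875, 854 and 793 on the HCC4006ER array. All 3 were lower for HCC4006ER, by log2 folds of -0.42, -0.48 and -0.59 in that order, and the last, 1.51-fold lower, was the one probe set of the 24 past the threshold in that direction. That probe set has the suffix that Affymetrix gives to probes matching several transcripts. The TEAD1 probe set at a log2 fold of 0.88 and the LATS2 one at 0.93 share this suffix. The gap between the log2 folds of YAP1 and WWTR1, which a constant factor per array cannot alter, was 0.45, or 1.15 SDs of a difference between probe sets.

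Among the DNA-binding partners, TEAD1 read 4891, 404 and 154 on the HCC4006 array and 6789, 657 and 283 on the HCC4006ER array. Its log2 fold was 0.47 in the brightest probe set and 0.70 and 0.88 in the dimmer ones, so that 2 of 3 passed 1.5-fold and the probe set that stood for the gene did not. Averaged over the 3, TEAD1 was 1.61-fold higher. TEAD4 read 907 and 707 on the HCC4006 array and 879 and 740 on the HCC4006ER array, log2 folds of -0.04 and 0.07 that differ in sign. TEAD1 exceeded TEAD4 in log2 fold by 0.52, which is 1.34 SDs of a difference between probe sets. The 2 other TEADs had log2 folds of -0.50 (TEAD2, at 366 and 259) and -0.03 (TEAD3, at 313 and 306), so TEAD1 was the TEAD with the highest fold.

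TEAD factors bind the sequence GGAATG, known as the MCAT element in its reverse complement, and the promoters of YAP/TAZ targets are shown because the target genes are the readout of the complex. Promoters from 250 bases before to 50 bases after a gene's start were taken from RefSeq on GRCh38.p14, where 7 of the 10 genes matched with 10 promoters. GGAATG was searched on both strands, and TGANTCA, the site of AP-1 factors that often act beside TEADs, likewise. Matches of the motifs can overlap by at most 2 bases. At least 1 GGAATG stood in a promoter of 6 of the 7 genes and in 6 of the 10 promoters, beside 14.0% of all 35116 promoters of that length. CCN2 had 3 matches, which 0.128% of all promoters reach, and ANKRD1 had 2, which 1.37% reach. The stretches before the gene start with these matches are printed 5′ to 3′ on the strand of the gene, with the GGAATG matches in capitals. They lie at chr6:131951437-131951566 (CCN2) and chr10:90921185-90921332 (ANKRD1), both on the minus strand.
CCN2: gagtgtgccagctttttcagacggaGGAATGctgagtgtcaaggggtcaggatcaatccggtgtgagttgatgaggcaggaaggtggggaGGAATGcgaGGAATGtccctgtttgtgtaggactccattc
ANKRD1: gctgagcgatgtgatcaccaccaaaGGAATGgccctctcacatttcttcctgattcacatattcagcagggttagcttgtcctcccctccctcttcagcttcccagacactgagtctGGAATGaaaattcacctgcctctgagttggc

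The CCN2 matches began 169, 104 and 95 bases before the gene start, those of ANKRD1 220 and 128 bases before it, and that of AMOTL2 69 bases before the downstream one of its 2 listed starts. YAP1 and AJUBA had 1 match each before the start, and the LATS2 match began at base 10 after it. Neither of the 2 WWTR1 promoters held GGAATG. Of the 7 genes, ANKRD1 alone had TGANTCA in its promoter, beside 7.71% of all promoters. These are matches of letters and say nothing of binding in these cells.

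The secreted matricellular proteins CCN1 and CCN2 are the most used readouts of YAP and TAZ. CCN1 read 11858 and 5676 on the HCC4006 array and 13654 and 6717 on the HCC4006ER array, log2 folds of 0.20 and 0.24. CCN2 had 1 probe set, at 2590 and 2851, a log2 fold of 0.14. Each of these folds is smaller than the SD of 0.27 between probe sets. CCN1 and CCN2 were thus bright on both arrays and differed from each other in log2 fold by 0.06.

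ANKRD1, a nuclear ankyrin repeat protein and strongly inducible YAP target, read 28.9 on the HCC4006 array and 80.7 on the HCC4006ER array. Neither signal reached its background level, and no fold is given. Its single probe set leaves no other reading of the gene.

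Of the 4 targets above background among the 10 genes, the feedback genes AMOTL2 and LATS2 had the highest folds. AMOTL2, an angiomotin family protein that binds YAP and holds it at junctions, read 3744 and 5193 in its 1 probe set, a log2 fold of 0.47, or 1.72 SDs between probe sets. LATS2, the kinase that phosphorylates YAP and TAZ and is itself induced by them, read 1099 and 421 in its brighter probe sets on the HCC4006 array and 1948 and 804 on the HCC4006ER array. Both were past 1.5-fold, at 1.77-fold and 1.91-fold higher, and a log2 fold above that of LATS2 was found for 3.80% of genes above background. The dimmer LATS2 probe sets, at 23.3 and 26.5 on the HCC4006 array and 72.8 and 24.8 on the HCC4006ER array, were not above background. The paralog LATS1 had a log2 fold of 0.41 in its 1 probe set above background, at 528 and 700. LATS2 exceeded CCN2 by 0.69 and CCN1 by 0.62 in log2 fold, which are 1.77 and 1.60 SDs of a difference between probe sets.

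AJUBA, a LIM domain protein that binds LATS kinases at junctions under tension and limits their activity, read 6105 and 4418 in its bright probe sets on the HCC4006 array and 6562 and 4687 on the HCC4006ER array, with log2 folds of 0.10 and 0.09. A dimmer probe set read 518 and 791 and was 1.53-fold higher, and the dimmest was not above background at 66.2 and 76.0. The AJUBA probe sets thus shared a sign but not a size.

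Per probe set, 5 of the 20 above background were higher past 1.5-fold (TEAD1 and LATS2 with 2 each, AJUBA with 1) and 1 was lower (WWTR1), beside 9.25% and 10.1% of all 21895 probe sets above background. Of the 7 genes with 2 or more probe sets above background on both arrays, WWTR1, TEAD1, CCN1, LATS2 and AJUBA had folds of 1 sign, which is 5 of 7 beside 66.2% of all such genes. LATS2 was the 1 of the 7 with every such probe set past 1.5-fold higher, beside 3.88% of all such genes, and 0 of the 7 had every one past 1.5-fold lower, beside 3.70%.

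**Figure D2:**
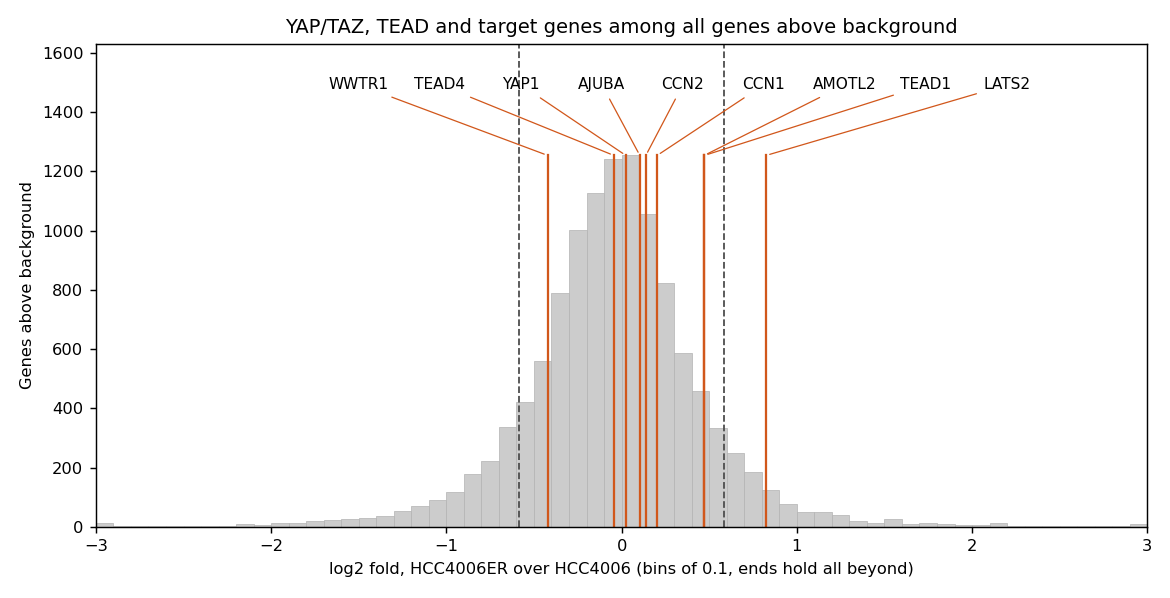
Number of genes above background by log2 fold of HCC4006ER over HCC4006 in bins of 0.1 (grey bars), with a vertical line at the fold of each of the 9 genes above background and dashed lines at 1.5-fold. LATS2 at 0.83 stands right of the upper dashed line, TEAD1 and AMOTL2 nearly coincide at 0.47, and WWTR1 at -0.42 is the lowest.

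The folds depended on scaling and probe set in places. Setting the medians of the arrays equal raised every log2 fold by 0.14, and TEAD1 and AMOTL2 then passed 1.5-fold at 0.61 each, where 12.4% of all genes were higher past it and 7.4% were lower. The array medians of 63.4 and 57.7 lie under the background levels. The settings for background level, floor, filter and probe set suffix could not move the genes above background. Their brightest probe sets were far above background and carried no such suffix. Under the alternatives of scaling and probe set choice LATS2 stayed past 1.5-fold, with log2 folds of 0.81 to 0.96. WWTR1 stayed under 0 at -0.59 to -0.29. YAP1 ran from 0.01 to 0.16, CCN2 from 0.13 to 0.27 and CCN1 from 0.20 to 0.34, while TEAD4 ran from -0.05 to 0.09 and so had no sign of its own.

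**Figure D3:**
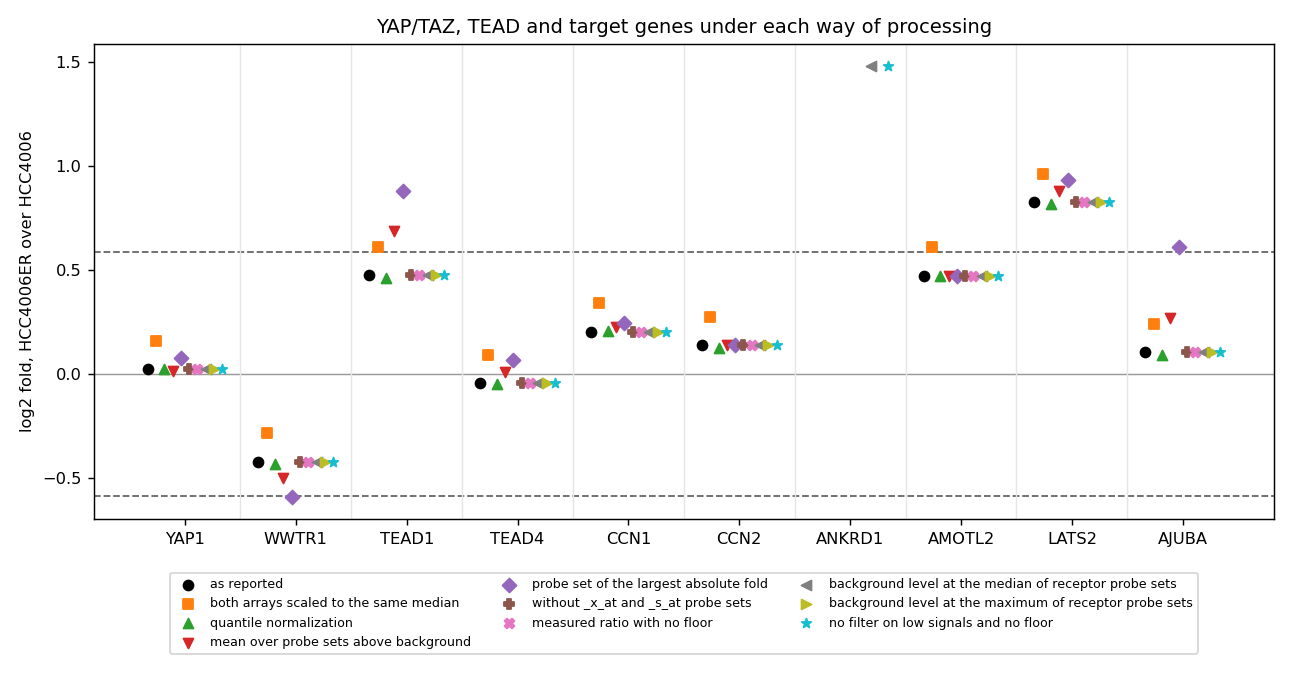
Log2 fold of HCC4006ER over HCC4006 for each of the 10 genes, with 1 symbol for the values as reported and 1 for each of 9 other ways of processing, and dashed lines at 1.5-fold. All LATS2 symbols lie above the upper line, TEAD1 crosses it under 3 of the settings and AMOTL2 under 1, and ANKRD1 has a value of 1.48 only where the background level is lowered or not used. Settings of background level, floor, filter and probe set suffix could not move the genes other than ANKRD1.

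Other genes of the Hippo pathway and other YAP/TAZ targets were taken from 4 lists of 68 symbols, which hold MINK1 also under its older name MAP4K6, and of these 63 had a probe set with 1 symbol and 58 were above background. Past 1.5-fold, 11 of the 58 were higher and 5 were lower on the HCC4006ER array, beside 7.99% and 11.2% of all genes, and the median log2 fold was 0.05. At 2-fold, 3 were higher and 2 were lower, beside 2.38% and 3.56% of all genes.

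In the core cassette, 14 of 15 genes were above background. Past 1.5-fold, 1 was higher and 0 were lower, beside 7.99% and 11.2% of all genes. The higher gene was SAV1, the scaffold that joins MST to LATS kinases, at 1246 and 2200 or 1.77-fold higher. The 5 SAV1 probe sets that passed the background level ran from 0.25 to 1.11 in log2 fold. None of the 5 remained when probe sets with suffixes for several matching transcripts were left out. The MST kinases STK3 and STK4 had log2 folds of -0.25 and 0.06. The brightest genes of the list, MOB1A, a LATS cofactor, and NF2 (merlin), which brings LATS to the membrane, had log2 folds of -0.08 and 0.26. The 8 NF2 probe sets above background ran from -0.19 to 0.66. Thus LATS2 and SAV1 stood past the threshold while STK3, STK4 and LATS1 lay within it. LATS2 exceeded LATS1 in log2 fold by only 0.42, which is 1.08 SDs of a difference between probe sets.

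Of 24 upstream and junctional regulators 21 were above background. Past 1.5-fold, 5 of them were higher and 2 were lower, beside 7.99% and 11.2% of all genes. AMOTL1, a paralog of AMOTL2 that also binds YAP, was 2.06-fold higher at 785 and 1617, and each of 3 AMOTL1 probe sets above background on both arrays was higher past 1.5-fold, with log2 folds of 0.62 to 1.04. The third paralog AMOT was not above background. The atypical cadherin FAT4 was 1.63-fold higher, at 126 and 205, close to background. PTPN14, a phosphatase that binds YAP and is also one of its targets, was 1.55-fold higher at 2180 and 3370. Its 4 probe sets above background ran from 0.33 to 1.05 in log2 fold. BTRC, the ubiquitin ligase subunit that recognises phosphorylated YAP and TAZ, was 1.54-fold higher at 287 and 443. The 3 BTRC probe sets above background ran from only 0.20 to 0.63 in log2 fold.

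The polarity genes LLGL1 and SCRIB went to opposite sides, 1.63-fold higher at 582 and 948 and 1.62-fold lower at 1153 and 714. A second LLGL1 probe set read 112 on the HCC4006 array and was not above background on the other, and the dimmest read 41.9 and 94.6, above background on the HCC4006ER array alone, so the LLGL1 probe sets disagreed. WWC3, a KIBRA family protein that supports LATS activity, was the lowest of the list at 2.40-fold lower, from 998 to 416, with a log2 fold of -1.13 in its other probe set above background. KIBRA itself (WWC1) read 4490 and 4847 in its brightest probe set, a log2 fold of 0.11. Its 5 probe sets above background ran from 0.11 to 0.99, all to the higher side. The bright 14-3-3 genes YWHAQ and YWHAZ, whose products hold phosphorylated YAP in the cytoplasm, had log2 folds of 0.10 and -0.32.

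VGLL1, a cofactor that binds TEADs in place of YAP and TAZ, had the highest fold of the 58 genes. It read 793 and 1968 in its brightest probe set, 2.48-fold higher. The other probe set above background read 191 and 439, a log2 fold of 1.20. Both have the suffix for probes matching several transcripts. The VGLL1 probe set without it read 12.5 and 21.3, not above background. VGLL3 had a log2 fold of 0.43 and VGLL4, which represses TEADs, of 0.06, and VGLL2 was not above background. Among TEADs and their partners, VGLL1 therefore differed more between the arrays than YAP1, WWTR1 or any TEAD.

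There were 18 other targets above background, of which 4 lay past 1.5-fold on the higher side and 3 on the lower side, beside 7.99% and 11.2% of all genes. The tumour suppressor gene DLC1 was 2.40-fold higher at 229 and 550 and the membrane protein MYOF 1.61-fold at 5074 and 8145. The stress gene GADD45A was 1.56-fold higher at 4613 and 7191 and the BMP-binding protein CRIM1 1.54-fold at 1721 and 2644. The MYOF and CRIM1 probe sets above background all have the suffix for several matching transcripts. Those of CRIM1 ran from 0.53 to 0.68 in log2 fold. The ectonucleotidase NT5E was 2.09-fold lower at 7322 and 3509. However, 3 NT5E probe sets above background on each array ran from -1.06 to -0.07 in log2 fold. A dim NT5E probe set went the other way, at 82.1 and 143.6, above background on the HCC4006ER array alone. The RNA-binding protein RBMS3 was 1.68-fold lower at 288 and 172 and the secreted FJX1 1.58-fold lower at 5818 and 3685. The brightest of the targets within 1.5-fold in that list, tissue factor (F3) and IGFBP3, had log2 folds of 0.18 and -0.53. A dimmer IGFBP3 probe set, at 2545 and 1591, was past the threshold at 1.60-fold lower. Taking these 18 with CCN1, CCN2, AMOTL2 and LATS2, 14 of 22 targets had a log2 fold above 0 and 8 below it, with a median of 0.16. Of all genes above background 45.6% had a log2 fold above 0, with a median of -0.04.

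**Figure D4:**
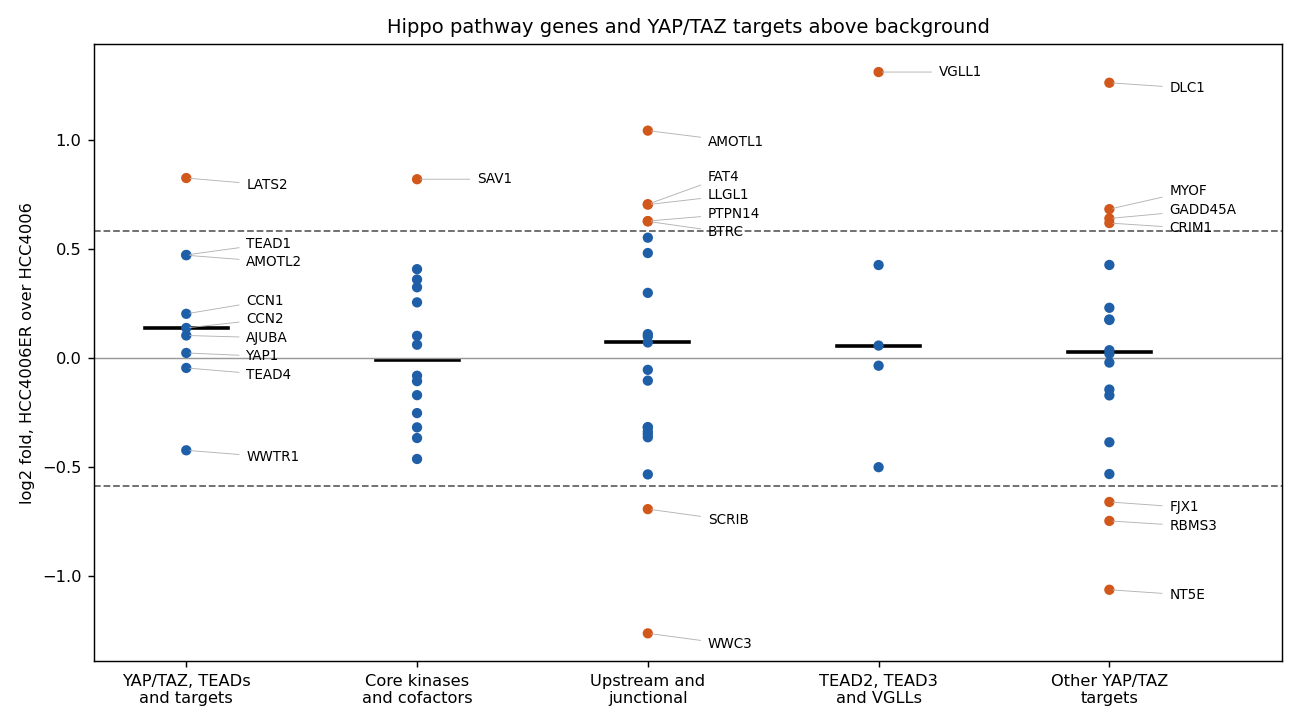
Log2 fold of HCC4006ER over HCC4006 for the genes above background in 5 groups, 1 point per gene, with orange points and names past 1.5-fold (all names in the first group), black bars at the group medians and dashed lines at 1.5-fold. VGLL1 and DLC1 are the highest points and WWC3 and NT5E the lowest, and the medians of the groups lie between -0.01 and 0.14.

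The neighbours on the chromosome were read from the order of genes in RefSeq, as the 10 nearest measured genes above background on either side. Among all genes above background 7.99% were higher and 11.2% lower past 1.5-fold, and 6418 of 11896 had a log2 fold under 0. The 20 neighbours of LATS2 on chromosome 13 had a median log2 fold of 0.10, with 2 higher and 1 lower past 1.5-fold. Those of TEAD1 on chromosome 11 had a median of 0.22 with 3 higher and 3 lower. The neighbours of WWTR1 on chromosome 3 had a median of -0.14, with 17 of 20 under 0 and 1 lower past 1.5-fold. AMOTL2, also on chromosome 3, had a log2 fold of 0.47 where its 20 neighbours had a median of -0.33. Under 0 were 17 of 20 neighbours of CCN1, 19 of AJUBA, 11 of YAP1, 8 of TEAD4, 6 of CCN2 and 4 of ANKRD1. The genes CCN1 and AJUBA themselves had log2 folds of 0.20 and 0.10. A regional part in any of these folds was not tested.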

How the data were processed

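The authors deposited 1 MAS5 signal intensity per probe set on a linear scale, without detection calls, for 54675 probe sets on 2 Affymetrix HG-U133 arrays (the submitters' processing notes also name GCOS 1.4). The platform annotation gave 1 gene symbol for 41097 probe sets, several for 1801 and none for 11777, and 41043 gene identifiers matched RefSeq (GRCh38.p14). The probe set of highest mean log2 signal stood for its gene. A signal under the background level was raised to it where the other array was above it, and no fold was given where both were under it. No p-value was computed, and precision is limited by the number of arrays.

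The genes, lists and comparisons were chosen with earlier results of these data known. The text names the 10 genes with every probe set, every other pathway gene past 1.5-fold and the 2 brightest others of each list. STK3, STK4, LATS1, TEAD2, TEAD3, the VGLLs, AMOT, WWC1 and the neighbours were added after their values were seen. The list genes MAP4K2, MAP4K3, NUAK2 and AREG had no probe set of 1 listed symbol and were not analysed here. The calculation was tested on simulated data. The tools were Python 3.11.15, scipy 1.17.1, pandas 2.3.3, matplotlib 3.10.9 and numpy 2.4.6.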

Additional observations from a re-analysis of the deposited data

How the results depend on the processing

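The count of 1 gene of the 10 higher past 1.5-fold was 3 with the array medians set equal (LATS2, TEAD1, AMOTL2), 2 with the mean over probe sets above background (LATS2, TEAD1), 3 when each gene took its probe set of largest absolute fold (LATS2, TEAD1, AJUBA), 2 with the background level at the median of the receptor probe sets and 2 without any filter or floor (LATS2 and the dim ANKRD1 in both), and 0 at a threshold of 2-fold. The count of 0 lower was 1, WWTR1, under that same choice of probe set. There TEAD1 had a log2 fold of 0.88 and AJUBA of 0.61. Over all genes, 950 of 11896 were higher past 1.5-fold as reported and 1475 of 11896 with the medians set equal. The count was 887 of 11868 with the mean over probe sets and 1429 of 11868 with the largest absolute fold. With the background level at the receptor median it was 1847 of 17266, and without filter or floor 2574 of 19775. At 2-fold it was 283 of 11896. Of the other pathway genes, the 11 higher were 7 when probe sets with the suffixes for several matching transcripts were left out and 3 at 2-fold, and the 5 lower were 3 with median scaling, 10 with the largest absolute fold and 2 at 2-fold. Without the suffixed probe sets 791 of all 9039 genes were higher. Lower among all genes were 1328 of 11896 as reported, 880 with median scaling and 424 at 2-fold. With the largest absolute fold 1729 of 11868 were lower. At 2-fold the change follows from the higher threshold. Without the suffixed probe sets SAV1, CRIM1, MYOF and VGLL1 had none above background. BTRC then read a log2 fold of 0.40, within 1.5-fold. WWC1 was then past it at 0.90, so the 7 were not all among the 11. Median scaling raised every log2 fold by 0.14, which brought SCRIB (-0.69 as reported) and FJX1 (-0.66) within the threshold. Why probe sets of a gene differed was not tested. The median log2 fold ran from 0.13 to 0.27, over 9 genes, or 10 where ANKRD1 had a value. Its 0.27 came with the array medians set equal, where the median over all genes was 0.10. No paired analysis was possible because each cell line had 1 array, and for the same reason no replicate could be left out. Signals near background, as for ANKRD1, FAT4 and the dim LATS2 probe sets, limit what these arrays can show.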
